A study of Oryza sativa with 8 samples.

Results

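The distal 3 Mb of the short arms of rice chromosomes 11 and 12 were examined for chromatin accessibility. Peaks were taken as members where their midpoint lay in the first 3 Mb of either chromosome, whatever their height, so the choice used position and no measured value. The 8 peak lists held 3933 such peaks out of 246695 in all, or 1.59%. There were 20038 peaks in the first 3 Mb of the other 10 chromosomes, which served for comparison. The lists came from ATAC-seq, in which Tn5 transposase cuts accessible DNA and tags it for sequencing, on nuclei of the aerial parts of 3-week-old seedlings. Nipponbare (Nip) is a japonica cultivar and 93-11 an indica cultivar. Each was either held at 45 °C for 36 h (HS) or not heated (Normal), and each of the 4 groups had 2 libraries. HS seedlings were also kept at high humidity and in dimmer light than that given for growth, and the light and humidity of Normal seedlings in those hours are not stated, so heat cannot be told apart from these factors. Plants were grown in culture solution, and whole aerial parts mix all cell types of leaf and stem.

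The ends of these arms are known in rice for a recent duplication. The copies lie in the same order and orientation on both chromosomes, and exchange of sequence between them has kept them more alike than the copies of older duplications. Open chromatin in plants lies mostly just upstream of genes and at other regulatory sites, so duplicated gene-rich segments could each keep their own set of accessible sites. The duplication was not checked here, since no genome sequence of the builds behind the lists was used, and for the same reason no gene is named at a peak. The members are called arm 11 and arm 12. Peaks reached positions of 28752914 on chromosome 11 and 27517145 on chromosome 12 in Nip, and 31731542 and 25961315 in 93-11, so the windows are the far ends of much longer sequences.

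The lists record no read depth. A background rate, the number of fragments expected by chance over a base, was recovered from the steps between peak values and follows depth times fragment length. It went from 5.26 ± 0.0636 (SD, n = 2) under Normal to 6.82 ± 0.0389 (SD, n = 2) under HS in Nip, and from 6.39 ± 0.396 (SD, n = 2) to 4.53 ± 0.180 (SD, n = 2) in 93-11. These are the directions in which peak number, covered length and peak width below moved. Background rate and condition thus cannot be told apart in the plain values. Further views are therefore given beside them, namely each arm relative to the mean of the other 10 arms of the same library, and the peaks that stand at least 4 times above the background of their library.

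In Nip both arms gained peaks under HS, by about the same amount. Arm 11 held 273 and 247 peaks in Normal replicates 1 and 2, and 315 and 349 in HS replicates 1 and 2. Arm 12 held 264 and 246 peaks under Normal, and 320 and 324 under HS. In each arm both HS libraries exceeded both Normal libraries. The mean of arm 11 rose from 260 ± 18.4 (SD, n = 2) to 332 ± 24.0 (SD, n = 2), a change of 27.7%. The mean of arm 12 rose from 255 ± 12.7 (SD, n = 2) to 322 ± 2.83 (SD, n = 2), a change of 26.3%. The other 10 arms went from a mean of 261 to 307 peaks, or 17.9%. Individual arms among them changed by 5.94% on chromosome 9 to 28% on chromosome 3, so that arms 11 and 12 took the second and the third place of 12. With 2 libraries per group the exact two-sided permutation test over 6 assignments cannot give a p below 0.333, and it gave 0.333 for each arm.

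In 93-11 both arms lost peaks under HS. Arm 11 held 251 and 245 peaks in the Normal libraries and 167 and 154 in the HS libraries. Arm 12 held 232 and 225 under Normal and 166 and 155 under HS. No HS library reached a Normal library in either arm. Arm 11 changed by -35.3%, from 248 ± 4.24 (SD, n = 2) to 160.5 ± 9.19 (SD, n = 2), and arm 12 by -29.8%, from 228.5 ± 4.95 (SD, n = 2) to 160.5 ± 7.78 (SD, n = 2). The mean of the other 10 arms changed by -27.3%, and single arms by -32.7% on chromosome 2 to -13.1% on chromosome 10. The change of arm 11 was thus the lowest of the 12 arms, and that of arm 12 stood eighth. The exact two-sided permutation test again gave its smallest p, 0.333, for both arms.

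**Figure D1:**
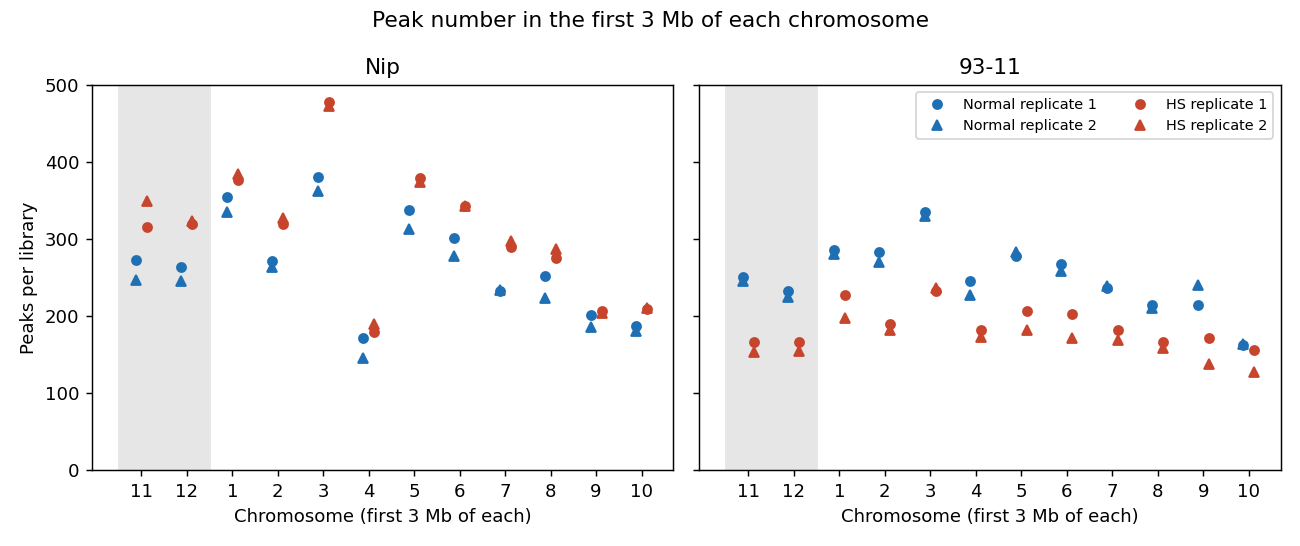
Number of ATAC-seq peaks (vertical axis) in the first 3 Mb of each chromosome (horizontal axis, chromosomes 11 and 12 first, shaded), with 1 point per library, circles for replicate 1 and triangles for replicate 2. In Nip the HS libraries of arms 11 and 12 sit at 315 to 349 peaks, above the Normal libraries at 246 to 273, and in 93-11 they sit at 154 to 167, below the Normal libraries at 225 to 251.

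Relative to the mean of the other 10 arms of the same library, arms 11 and 12 moved further in the direction of their cultivar, by an amount that depended on the reference. In Nip arm 11 held 1.02 and 0.979 times the mean of the 10 arms under Normal, and 1.03 and 1.13 times under HS. For arm 12 the ratios were 0.982 and 0.975 under Normal and 1.05 in both HS libraries. In 93-11 arm 11 went from 0.995 and 0.978 under Normal to 0.871 and 0.887 under HS, and arm 12 from 0.92 and 0.899 to 0.865 and 0.892. The conditions did not overlap in any of the 4 cases, but the gap was narrow for Nip arm 11 (1.02 against 1.03) and 93-11 arm 12 (0.899 against 0.892). Such separation, up or down, was also seen in the Nip arms of chromosomes 1, 3, 5, 7, 9 and 10. In 93-11 it was seen in those of chromosomes 1, 2, 5, 8 and 10. Among the other arms the log2 change of this ratio ran from -0.15 (chromosome 9) to 0.12 (chromosome 3) in Nip. In 93-11 it ran from -0.11 (chromosome 2) to 0.25 (chromosome 10). On the log2 scale the change of the ratio was 0.12 and 0.10 for arms 11 and 12 in Nip, and -0.17 and -0.05 in 93-11, each with an exact two-sided permutation p of 0.333, the smallest possible. The value of Nip arm 11 was 0.05 without HS replicate 2 and 0.18 without HS replicate 1, and that of 93-11 arm 12 was -0.03 without either HS replicate 1 or Normal replicate 1. Against the median of the 10 arms the log2 changes were 0.08 and 0.06 in Nip and -0.13 and -0.01 in 93-11. As a percent of all chromosomal peaks, Nip arm 11 overlapped, with 0.869 and 0.836 under Normal and 0.868 and 0.950 under HS. Nip arm 12 and both arms of 93-11 did not overlap in this percent.

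Among strong peaks of 93-11 the extra loss was not seen in arm 11, and in arm 12 its size depended on the threshold. At 4 times the background and above, arm 11 of 93-11 held 76 and 78 peaks under Normal and 73 and 77 under HS, and arm 12 held 86 and 82 under Normal and 82 and 74 under HS. These groups overlapped, with changes of -2.60% and -7.14% against -5.33% for the mean of the 10 arms, and relative to those arms the log2 change of arm 11 turned to 0.04 and that of arm 12 was -0.03. In Nip the gain was as large among strong peaks. Arm 11 went from 166 and 159 peaks to 212 and 220, and arm 12 from 162 and 148 to 197 and 205. These changes of 32.9% and 29.7% compare with 14.1% for the mean of the 10 arms, and relative to those arms the log2 change was 0.22 and 0.19. The 10 arms are not the whole genome. Over all 12 chromosomes the mean number of such peaks went from 20311 to 24609.5 in Nip and from 11520.5 to 11486 in 93-11. With every list held to its 10000 strongest peaks, which fixes the list length, the log2 change of peak number in Nip was smaller, at 0.15 in arm 11 and 0.11 in arm 12, and that in 93-11 was 0.05 and -0.14. Relative to the 10 other arms these were 0.24 and 0.20 in Nip, and 0.10 and -0.10 in 93-11.

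The length covered by peaks changed more than the number of peaks. In Nip, peaks covered 111 and 104 kb of arm 11 under Normal and 155 and 166 kb under HS, and 109 and 103 kb of arm 12 under Normal and 154 kb in both HS libraries. From Normal to HS the covered share of arm 11 thus went from between 3.48% and 3.71% to between 5.16% and 5.53%. The increase was 48.6% in arm 11 and 45.1% in arm 12, against 33.9% for the mean of the 10 arms. In 93-11 arm 11 went from 77.3 and 79.0 kb under Normal to 45.1 and 44.6 kb under HS, and arm 12 from 79.1 and 76.1 kb to 48.4 and 44.2 kb. These changes were -42.7% and -40.3%, against -37.7% for the mean of the 10 arms. Conditions did not overlap in either arm of either cultivar (exact two-sided permutation p = 0.333 for each). The direction of this change also held at 4 times the background, where the log2 change was 0.58 and 0.55 for arms 11 and 12 in Nip, and -0.38 and -0.48 in 93-11. That threshold acts on peak height and not on width, so background rate and condition cannot be told apart in covered length there either. At this threshold the number of peaks in 93-11 arm 11 changed by -2.60%. With the 10000 strongest peaks of each list it was smaller, at 0.26 and 0.22 in Nip and -0.36 and -0.45 in 93-11.

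**Figure D2:**
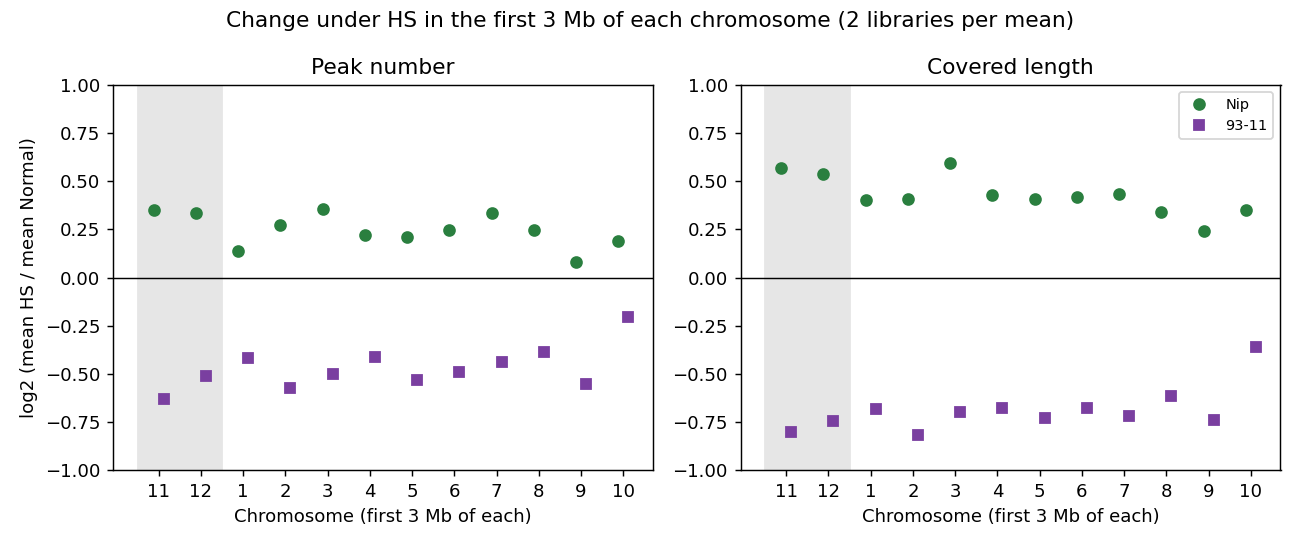
Log2 ratio of the mean of 2 HS libraries to the mean of 2 Normal libraries (vertical axis) for peak number (left) and covered length (right) in the first 3 Mb of each chromosome (horizontal axis, chromosomes 11 and 12 shaded), with circles for Nip and squares for 93-11 and no error bars since each point is a ratio of 2 means. Arms 11 and 12 lie at 0.35 and 0.34 for number in Nip and at -0.63 and -0.51 in 93-11, within the range of the other arms except for number in 93-11 arm 11.

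Peak width moved with covered length, as it did in the mean of the other 10 arms. The log2 change of median width was 0.27 and 0.22 in arms 11 and 12 of Nip, against 0.19 for the 10 arms. In 93-11 it was -0.20 and -0.18, against -0.22 for the 10 arms. The median width in Nip was 343 and 355 bp in arm 11 under Normal and 425 and 416 bp under HS, and in arm 12 it was 343.5 and 340.5 bp against 405.5 and 390 bp. Peaks of 1 kb or more were 11 in each Normal library of arm 11 and 19 and 17 under HS, and 9 and 10 in arm 12 against 19 and 20. In 93-11 the median width of arm 11 was 255 and 262 bp under Normal and 224 and 226 bp under HS, and that of arm 12 was 278 and 277 bp against 249 and 241 bp. Arm 12 of 93-11 was the wider of the pair in 4 of 4 libraries, with a mean difference, arm 11 minus arm 12, of -19.5 ± 5.26 bp (SD, n = 4, exact sign-flip permutation over 4 libraries, two-sided, p = 0.125, the smallest possible). In Nip arm 11 was the wider in 3 of 4 libraries, by a mean of 14.9 ± 11.3 bp (SD, n = 4, exact sign-flip permutation p = 0.250). Wide peaks were few in 93-11, with 0 to 4 per arm and library.

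In neither cultivar did 1 arm hold more peaks than the other in all 4 libraries. Arm 11 held 1.02 times as many peaks as arm 12 in Nip, as the geometric mean of 4 libraries, and was the higher in 3 of 4 (exact sign-flip permutation, two-sided, p = 0.375). In 93-11 the ratio was 1.04, again higher in 3 of 4 (exact sign-flip permutation p = 0.375). Against the mean of the 10 other arms, both arms of 93-11 had fewer peaks in 4 of 4 libraries, by a factor of 0.931 for arm 11 and 0.894 for arm 12 as geometric means (exact sign-flip permutation, two-sided, p = 0.125 for each, the smallest possible). In Nip the factor was 1.04 for arm 11, which was above the mean in 3 of 4 libraries, and arm 12 was above it in 2 of 4. In covered length Nip arm 11 exceeded arm 12 in 4 of 4 libraries, by 1.03 times (exact sign-flip permutation p = 0.125), whereas 93-11 had 2 libraries on each side. Without HS replicate 2 the log2 ratio of arm 11 to arm 12 in Nip was 0.01, and without HS replicate 1 it was 0.05, against 0.03 over all libraries. In 93-11 it was 0.04 without Normal replicate 2, against 0.06. Its sign depended on the length of the window in Nip and on the threshold in 93-11. The Normal libraries of 93-11 had more peaks in arm 11, with log2 ratios of 0.118 ± 0.00657 (SD, n = 2), whereas in the HS libraries the arms were equal to within 1 peak, with -0.00034 ± 0.0127 (SD, n = 2). From Normal to HS the mean fell by 87.5 peaks in arm 11 and by 68 in arm 12, and the exact two-sided permutation test of this difference gave p = 0.333, the smallest possible.

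Under HS the change was uneven along the arms. In the second megabase of arm 11, Nip had 65 and 61 peaks under Normal and 92 and 102 under HS, a change of 54.0%. The second megabase of arm 12 had 81 and 68 peaks under Normal and 110 and 105 under HS, a change of 44.3%. The second megabase of the other 10 chromosomes changed by -2.44% to 32.0%, with a median of 16.8%, so arms 11 and 12 stood first and second of 12. The same order was seen at 4 times the background, with 56.3% and 44.3% against -12.7% to 28%. This stretch was singled out after its values had been seen, so the values are a description with no test. Under Normal it had fewer peaks in arms 11 and 12 than the median of the 10 other chromosomes, with means of 63 and 74.5 against 87.25, but not the fewest.

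In Nip the first megabase changed less than the second in both arms. In the first megabase arm 11 had 109 and 91 peaks under Normal and 104 and 121 under HS, which overlap, and arm 12 had 106 and 102 against 114 and 110. These changes of 12.5% and 7.69% were below the median of 16.7% for the 10 other chromosomes. At 4 times the background the order was the opposite, with 15.7% and 18.8% against a median of 12.2%. In the third megabase arm 11 went from 99 and 95 peaks to 119 and 126, and arm 12 from 77 and 76 to 96 and 109, the second of these with the highest change of the 12 arms, 34.0%.

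In 93-11 no single megabase carried the loss of peaks in both arms. Arm 11 lost most in the first megabase, from 102 and 104 peaks under Normal to 59 and 58 under HS (-43.2%). At 4 times the background this megabase of arm 11 changed by -10.2%, and the third megabase of that arm by 8.20%. Arm 12 lost most in the second, from 72 and 73 to 45 and 38 (-42.8%), a change outside the range of -29.9% to -14.9% of the other 10 chromosomes, a stretch also singled out after its values had been seen. There the change at 4 times the background was -22.4%. In the third megabase arm 12 had 70 peaks in both Normal libraries and 64 and 60 under HS (-11.4%), and at 4 times the background its number was higher under HS, with 34 in both HS libraries against 30 and 27. The second megabase of arm 11 had the fewest Normal peaks of the 12 arms, with 61 and 57.

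**Figure D3:**
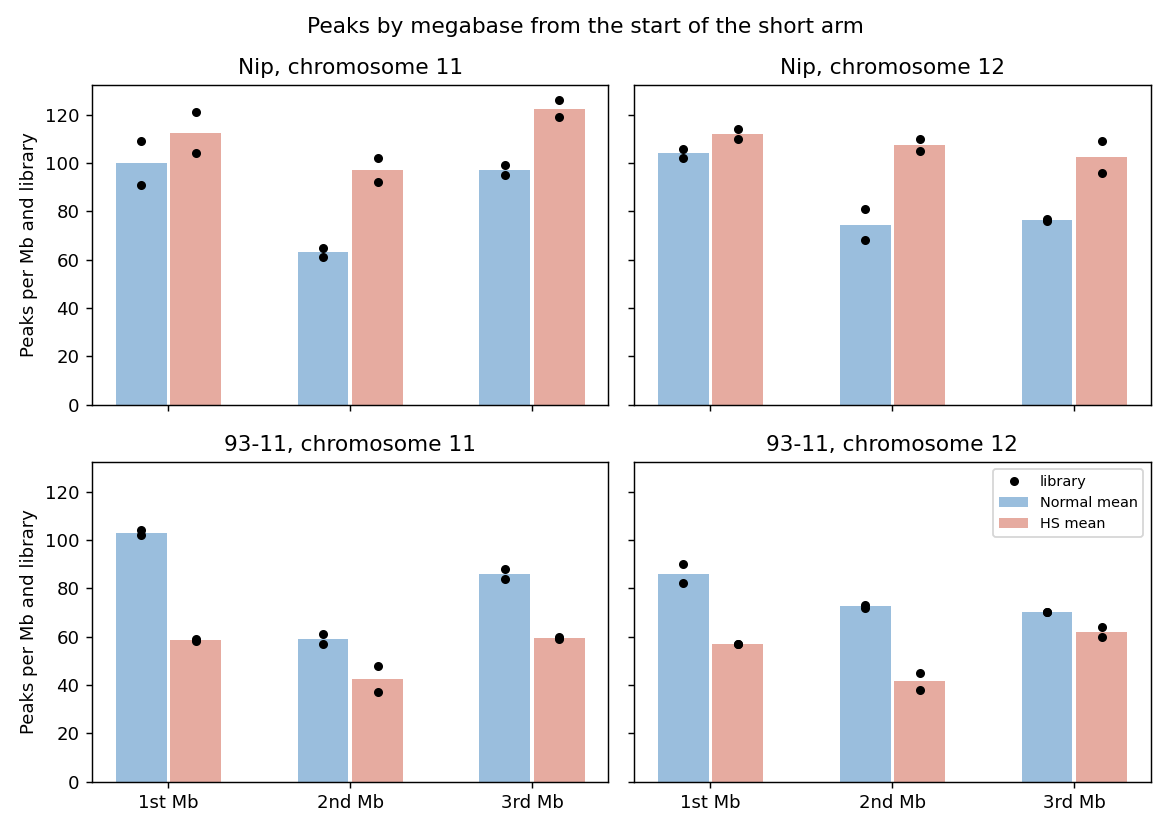
Peaks per library (vertical axis) in the 1st, 2nd and 3rd megabase from the start of chromosomes 11 and 12 (horizontal axis), with bars for the mean of 2 libraries and black points for each library. In Nip the widest gap between Normal and HS is in the 2nd megabase of both chromosomes (63 against 97, and 74.5 against 107.5), and in 93-11 every HS library lies below both Normal libraries.

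How alike the arms were in the distribution of peaks along them depended on bin size and window. Over 30 bins of 100 kb, the mean numbers of peaks of arms 11 and 12 at the same distance from the start had a Pearson r of 0.04 in Nip and 0.05 in 93-11, as a description across bins that share libraries and depth. Leaving out 1 library gave r of -0.0004 to 0.11 in Nip, the lowest without Normal replicate 1 and the highest without HS replicate 1, and of 0.04 to 0.11 in 93-11, the highest without Normal replicate 2. In single libraries r ranged from -0.05 to 0.18 in Nip and from -0.10 to 0.21 in 93-11. The other 65 pairs of the 12 arms had a median of 0.02 in Nip and -0.03 in 93-11, and reached 0.40 and 0.37. Arms 11 and 12 thus took place 30 of 66 pairs in Nip and place 23 in 93-11. With bins of 250 kb r was 0.09 in Nip and 0.60 in 93-11, the latter at place 3 of 66 pairs over 12 bins, where other pairs reached 0.68. In 100-kb bins of the first 2 Mb r was 0.36 in Nip. Inserted or deleted sequence shifts matching sites out of the same bin, and the arms were not aligned by sequence here. Within an arm the profile was stable, with r of 0.83 to 0.93 between Nip replicates and 0.69 to 0.83 between those of 93-11. Between conditions r was 0.89 and 0.76 for arms 11 and 12 in Nip, and 0.46 and 0.54 in 93-11.

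Bins of 100 kb ranged widely in both arms. In Nip the richest bin of arm 11 had a mean of 18.75 peaks over the 4 libraries and lay 2700 to 2800 kb from the start, next to the poorest, with 2. In arm 12 the richest had 19.0 peaks at 700 to 800 kb and the poorest 4.5 at 1700 to 1800 kb. The mean number was higher under HS in 28 of 30 bins of arm 11 and 26 of 30 bins of arm 12 in Nip. It was lower under HS in 24 and 25 of 30 bins in 93-11. The number of peaks on all 12 chromosomes changed by 19.8% in Nip and by -23.5% in 93-11. Shares of such bins in the other arms were not computed, so these counts are not read as particular to the arms.

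Both arms held a smaller share of strong peaks than the mean of the other arms. The share of an arm's peaks that belonged to the strongest 25% of the chromosomal peaks of their list was 19.0% and 19.4% in arm 11 of Nip under Normal and 22.9% and 20.6% under HS, and 16.3% and 19.1% in arm 12 under Normal and 19.1% and 17.6% under HS. The mean of the 10 other arms was 23.0% to 25.3% in these libraries. In 93-11 the share was 20.3% and 19.6% in arm 11 under Normal and 22.8% and 26% under HS, and 22.8% and 22.2% in arm 12 against 18.7% and 20%, where the 10 arms had 25.9% to 28.5%. Both arms lay below the mean of the 10 in 4 of 4 libraries of each cultivar (exact sign-flip permutation, two-sided, p = 0.125 for each arm and cultivar, the smallest possible). This does not set them apart from every other arm, since they took places 7 to 12 of 12 and the arms of chromosomes 4, 9 and 10 were low as well. The median percentile was not lower throughout. Arm 11 of Nip differed from the mean of the 10 arms by -6.75 and -5.86 points under Normal and by 3.26 and -1.20 points under HS (exact sign-flip permutation over 4 libraries, two-sided, p = 0.375), while arm 12 of Nip and both arms of 93-11 lay below in 4 of 4 libraries.

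**Figure D4:**
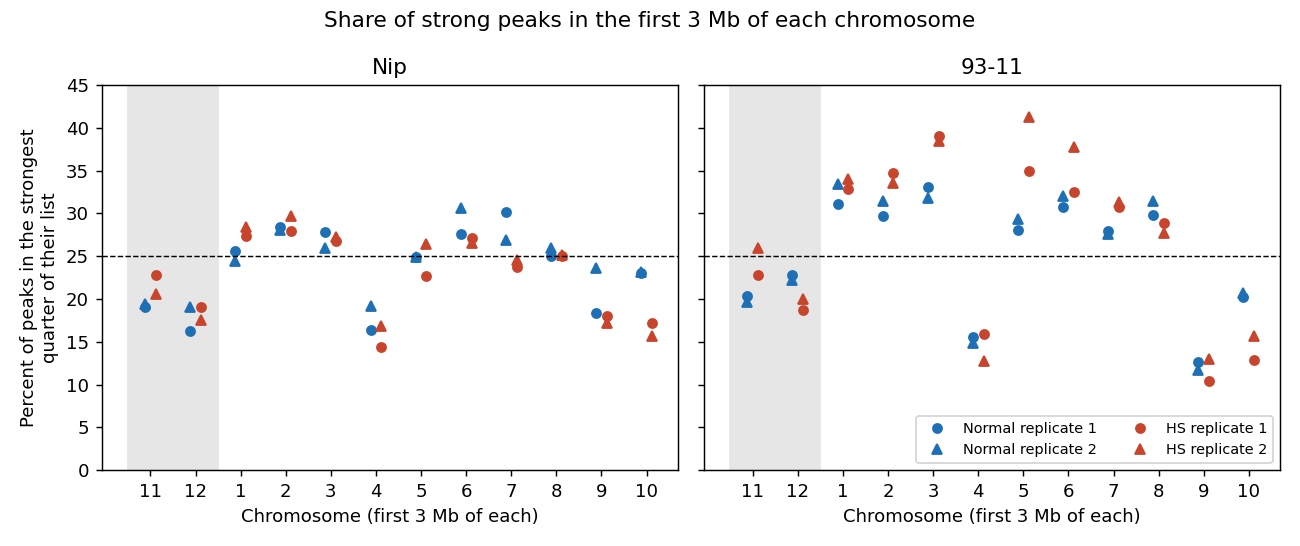
Percent of the peaks in the first 3 Mb of each chromosome that are among the strongest 25% of their list (vertical axis), with chromosomes 11 and 12 first and shaded, 1 point per library, circles for replicate 1 and triangles for replicate 2; the dashed line marks 25%. Points of arms 11 and 12 lie at 16.3% to 26%, with 15 of 16 under the line, and the arms of chromosomes 4, 9 and 10 also lie under it in both cultivars.

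To see which sites were shared, peaks from all 4 lists of a cultivar were joined into regions where they shared 1 bp or more, or abutted. Nip had 433 regions in arm 11 and 429 in arm 12, and 93-11 had 427 and 391. In Nip 169 regions (39.0%) of arm 11 and 163 (38.0%) of arm 12 held a peak in all 4 libraries, against 43.5% in the other 10 arms. In 93-11 these were 66 (15.5%) and 65 (16.6%), against 18.5%. A peak in a single library was the most frequent pattern in 93-11, with 51.3% and 52.2% of the regions of arms 11 and 12. These shares were near the 50.8% over all 12 chromosomes and the 49.2% in the other 10 arms.

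Regions with peaks in 1 condition only followed the direction of the cultivar. HS-only regions, with a peak in both HS libraries and in neither Normal library, were 49 of 433 (11.3%) in arm 11 and 52 of 429 (12.1%) in arm 12 of Nip, against 10.1% over all 12 chromosomes. Normal-only regions were 9 (2.08%) and 8 (1.86%) there, against 2.08% over all. In 93-11 Normal-only regions were 60 of 427 (14.1%) in arm 11 and 46 of 391 (11.8%) in arm 12, against 10.4% over all, and HS-only regions were 12 (2.81%) and 9 (2.30%), against 3.17%. Single arms among the other 10 ranged from 5.49% to 14.1% for Nip HS-only and from 9.19% to 13.9% for 93-11 Normal-only regions. The share in arm 11 of 93-11 was just above that range and the other shares of those classes were inside theirs. With the 10000 strongest peaks of each list, HS-only regions in Nip were 13 and 12 in arms 11 and 12. Normal-only regions in 93-11 were then 10 and 14, against 10 and 7 HS-only regions. Shares over all 12 chromosomes were not computed at this setting, so these counts are not read as a result about the arms.

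**Figure D5:**
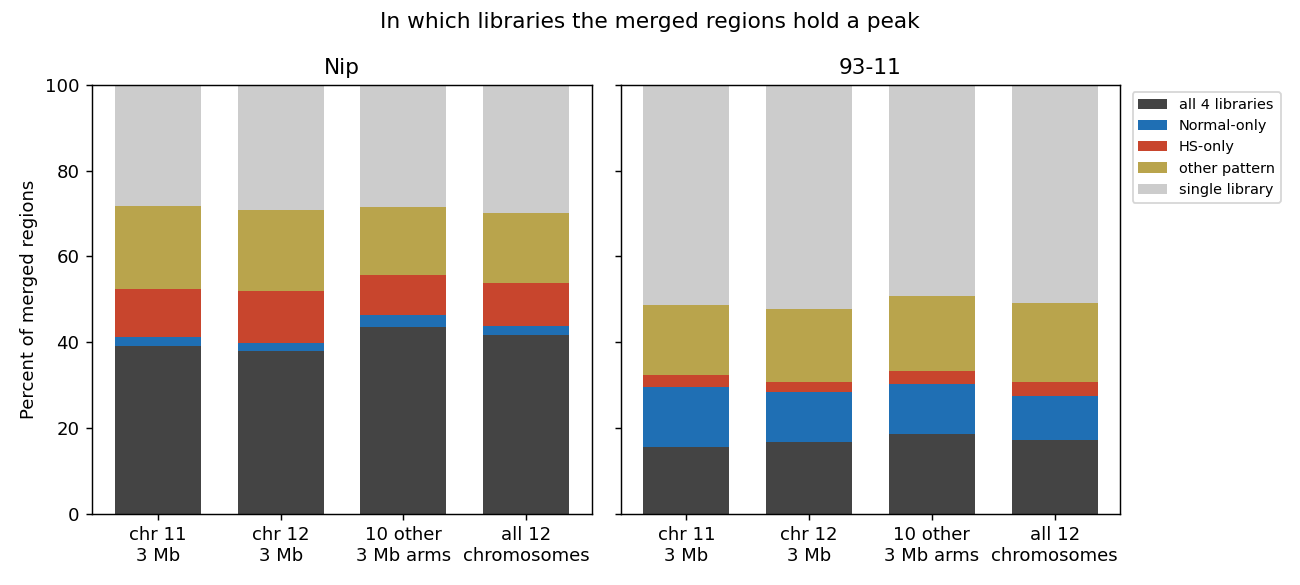
Percent of merged regions (vertical axis) by the libraries in which they hold a peak, for the first 3 Mb of chromosomes 11 and 12, the first 3 Mb of the other 10 chromosomes and all 12 chromosomes, in Nip (left) and 93-11 (right). Regions with a peak in all 4 libraries are 39.0% and 38.0% in Nip and 15.5% and 16.6% in 93-11, and HS-only regions outnumber Normal-only regions in Nip whereas the opposite holds in 93-11.

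The overlap of covered bases was measured by the Jaccard index, the bases covered in both lists over those covered in either. In arm 11 of Nip it was 0.524 between Normal replicates, 0.610 between HS replicates and 0.447 to 0.456 across conditions, and in arm 12 it was 0.541, 0.613 and 0.430 to 0.461. In 93-11 it was 0.391, 0.359 and 0.235 to 0.288 in arm 11, and 0.418, 0.318 and 0.256 to 0.266 in arm 12. Replicates overlapped more than libraries of different conditions in both arms of both cultivars. The mean index within conditions and that across them lay inside the range of the other 10 arms and below their median for both arms of both cultivars.

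The regions with a peak in every library that are named here were chosen for their rank, so their high percentiles follow from that choice. In every library the strongest peak of each of the 12 arms ranked at percentile 97.7 or above. The positions that follow are on the chromosomes as the lists of each cultivar name them, counted from 1, with the build not given in the sources used here. Values are the −log10 p of the peak, which rises with depth and so is read through its percentile in its list. In Nip the highest ranked region of arm 11 spanned 2860827 to 2861492, with −log10 p of 194 and 174 under Normal and 187 and 196 under HS, at percentile 99.8 or above in all 4 lists. The second, at 2772515 to 2773588, had 174 and 139 under Normal and 133 and 165 under HS, and the third, at 971952 to 973529, had 83.8 and 74.6 under Normal and 93.1 and 108 under HS. Their lowest percentile in any list was 97.0.

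In arm 12 of Nip the highest ranked region spanned 936647 to 937443, with −log10 p of 155 and 132 under Normal and 180 and 175 under HS. The next were at 512810 to 513475, with 122 and 100 under Normal and 109 and 139 under HS, and at 2979559 to 2980070, with 76.9 and 73.2 under Normal and 107 and 112 under HS. The lowest percentile of the 3 in any list was 96.7. The strongest sites of arms 11 and 12 thus lay at different distances from the start, 2861 kb and 937 kb.

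In 93-11 arm 11 again held the strongest site of the pair, at 2824965 to 2826031, with −log10 p of 136 and 113 under Normal and 70.3 and 68.9 under HS. Its percentile was 99.8 or above in all 4 lists. The second, at 2911740 to 2912402, had 106 and 95.5 under Normal and 37.6 and 46.1 under HS, and the third, at 449687 to 450532, had 43.8 and 51.3 against 29.0 and 31.0. In arm 12 the leading regions were at 2941087 to 2941521 (40.1 and 57.0 under Normal, 31.7 and 49.6 under HS), at 491547 to 492244 (47.1 and 52.3 against 30.8 and 27.1) and at 2959577 to 2960024 (47.3 and 63.1 against 21.5 and 25). Their lowest percentile was 94.5.

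Of the regions with a peak in 1 condition only, even the highest ranked were mostly weaker than those named above. A missing peak does not show that a site was closed, since the background rates differed between conditions. In Nip the highest ranked HS-only regions of arm 11 were at 2325569 to 2325924, with −log10 p of 40.6 and 31.7, and at 2353306 to 2353999, with 23.6 and 28.5. The nearest Normal peaks lay 2040 and 4677 bp away. Those of arm 12 were at 1888541 to 1888985, with 17.5 and 25.6, and at 918831 to 919451, with 16.6 and 17.3. Nip Normal-only regions ranked highest at 2124915 to 2125568 (14.5 and 13.1) and 742213 to 742768 (18.0 and 9.38) in arm 11, and at 367821 to 369062 (9.63 and 11.7) and 358419 to 358709 (8.60 and 8.08) in arm 12. None of these 4 reached percentile 70 in any list, and an HS peak lay within 2274 bp of each.

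In 93-11 the highest ranked Normal-only region of arm 11, at 1485949 to 1486332, had −log10 p of 14.3 and 14.7, and the nearest HS peak was 26562 bp away, the largest such distance of the regions named. The next was at 68584 to 68839, with 15.1 and 11.8. In arm 12 they were at 1313123 to 1313326, with 15.1 and 14.7, and at 2946646 to 2946953, with 12.2 and 13.2. The HS-only regions were at 675397 to 675942 (17.5 and 15.1) and 2341889 to 2342310 (6.70 and 5.72) in arm 11, and at 2479069 to 2479331 (14.0 and 16.8) and 2492518 to 2493048 (7.32 and 8.27) in arm 12. In each arm the first of these ranked at percentile 86.7 or above in both HS lists, while the second ranked at percentile 65.5 or below.

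The widest regions were of high rank in arm 11 and of middle to low rank in arm 12. The widest region of arm 11 in Nip spanned 1711 bp at 703109 to 704819, at percentile 70.5 to 89.7, and that of arm 12 spanned 1797 bp at 2455786 to 2457582, at percentile 29.5 to 41.5. In 93-11 the widest spanned 1563 bp at 854602 to 856164 in arm 11, at percentile 85.4 to 94.0, and 1728 bp at 393376 to 395103 in arm 12, at percentile 11.2 to 46.1. All 4 held a peak in each library of their cultivar.

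The longest stretches without a peak were inside the range of the other 10 arms and below their median. The longest stretch of arm 11 with no peak in any Nip library was 66798 bp, from 1656041 to 1722838, and that of arm 12 was 42943 bp, from 2094072 to 2137014. The other 10 arms had longest stretches of 36944 to 101478 bp, with a median of 76657 bp. In 93-11 they were 54246 bp in arm 11, from 2546243 to 2600488, and 53709 bp in arm 12, from 1499962 to 1553670. The 10 arms there had 47434 to 90171 bp, with a median of 64654 bp. Of 150 windows of 20 kb, 21 in arm 11 and 9 in arm 12 held no region in Nip, and 15 and 18 in 93-11, while the other arms had 7 to 34 and 10 to 23. The median distance between neighbouring regions was 4038.5 and 4554.5 bp in arms 11 and 12 of Nip and 4113 and 4432 bp in 93-11, inside the ranges of 3065 to 5292 bp and 3520 to 4925 bp of the other arms.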

How the data were processed

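The members, measures and tests were chosen with earlier results of these data known. As the methods describe it, the authors used Cutadapt for trimming, Bowtie2 for mapping, and SAMtools and Picard to drop duplicates, improper pairs, organelle reads and mapping qualities under 30. Narrow peaks came from MACS2, run on each library with an adjusted p-value limit of 0.05. The submitters' processing notes name BWA 0.7.10-r789, SAMtools 0.1.19, deepTools 2.0 and MACS2 2.1.1, so which aligner made the lists is not known. A read that maps equally well to both arms has a low mapping quality, so a stretch that is identical in both could give no peak. How much of the arms this concerns was not tested. A shift for the Tn5 offset and the genome builds are not given in the sources used here. The deposited value of each peak has no header and was read as a −log10 p-value from its repeated steps.

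Midpoints, lengths and merged regions were computed with Python 3.11.15, numpy 2.4.6, pandas 2.3.3 and scipy 1.17.1. The background rate was fitted as the Poisson mean whose tail probabilities at integer pileups lay closest to the 12 commonest values of a list. Percentiles are ranks among the peaks of a list on the 12 chromosomes. Conditions were compared with exact permutation tests within a cultivar, and arms with exact sign-flip tests over its 4 libraries. Of 46 such tests none had a Benjamini-Hochberg adjusted p-value below 0.359. The p-values of the permutation tests between conditions draw on the spread between 2 replicates, which the methods call biological. Those of the sign-flip tests draw on the agreement of 4 libraries, Normal and HS together, which share 1 genome sequence. Regions were named by rule: in each arm the 3 shared, 2 Normal-only and 2 HS-only regions with the highest lowest percentile, the widest region and the longest stretch without a peak. Alternatives were other window lengths, thresholds, bin sizes, a merging gap, the median of the 10 arms, single libraries left out and a replicate block. Merging and the tests were checked on simulated lists. The planned search for copies between the arms, nearest genes and gene lists needed a genome of the builds and were not analysed here.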

Additional observations from a re-analysis of the deposited data

Results flagged for a closer look

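Under HS both arms moved in opposite directions in the cultivars, up in each library of Nip and down in each library of 93-11 relative to the Normal libraries. This was not particular to them, since peak number and covered length did so without overlap in all 10 other arms. The log2 change of the mean of those 10 arms was 0.24 in Nip and -0.46 in 93-11 for peak number. It was 0.42 and -0.68 for covered length, and 0.19 and -0.22 for median width. The differences below are the log2 change under HS in 93-11 less the log2 change in Nip. In arm 11 the difference was -0.98 in peak number, -1.37 in covered length and -0.47 in median width, and in peak number relative to the 10 other arms it was -0.28. In arm 12 these differences were -0.85, -1.28, -0.40 and -0.15. For each, the exact two-sided permutation of condition labels within cultivars, with 36 assignments, gave p = 0.0556, which is its smallest value. The background rate also rose under HS in Nip and fell in 93-11, and at 4 times the background the conditions overlapped or tied in peak number in both arms of 93-11.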

How the results depend on the processing

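Of 212 alternative values, 185 kept their direction, or for counts and correlations their size, and the direction of covered length held in 40 of 40. The ratio of arm 11 to arm 12 in Nip turned to -0.10 in the first 2 Mb and -0.035 in the first 4 Mb (log2), and that of 93-11 to -0.090 at 4 times the background. With the 10000 strongest peaks of each list the log2 change of peak number in 93-11 arm 11 turned to 0.054, and relative to the 10 other arms to 0.098, and at 4 times the background the latter was 0.042. For 93-11 arm 12 the relative change turned to 0.0057 in the first 4 Mb. Leaving out any library turned no direction of a change under HS or of the ratio of the arms, but took the correlation of the arms in Nip to between -0.0004 and 0.11. With the 10000 strongest peaks HS-only regions in Nip were 13 and 12 in arms 11 and 12, and Normal-only regions in 93-11 were 10 and 14. At 4 times the background the latter were 13 and 18. At a −log10 p of at least 5 there were 6 HS-only regions in 93-11 arm 11 and 5 Normal-only regions in Nip arm 12. In the first 2 Mb, HS-only regions were 5 in each arm of 93-11 and 30 and 31 in Nip, and Normal-only regions in Nip arm 11 were 5. Shares over all 12 chromosomes were not computed at these settings, so none of these counts is read as particular to the arms. The correlation of the arms' profiles in 93-11 was 0.22 with the 10000 strongest peaks, 0.23 at 4 times the background, 0.60 in bins of 250 kb and 0.20 in the first 4 Mb. In Nip it was -0.14, -0.11 and, in the first 2 Mb, 0.36. The causes were not tested. The alternatives for copies of regions between the arms were not run, since they need a genome. With the replicate block, pairing libraries of the same number, the log2 change of peak number was 0.35 and 0.34 in arms 11 and 12 of Nip and -0.63 and -0.51 in 93-11, and no direction changed. The labels do not say that a number marks a shared batch, and deviations of same-numbered libraries over 100-kb bins of the genome had r of -0.006 in Nip and 0.03 in 93-11. Depth is not recorded, and the permutation of 2 against 2 libraries allows no p below 0.333.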
